A study of Rattus norvegicus with 15 samples.

Results

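Fatty acid oxidation genes and targets of the peroxisome proliferator-activated receptors (PPARs) were followed in rat retina through 9 genes, *Cpt1a*, *Cpt2*, *G0s2*, *Pdk4*, *Angptl4*, *Acadm*, *Ppara*, *Ucp2* and *Ppargc1a*. Every probe set whose array annotation gives exactly 1 of these symbols was taken, which gave 13 probe sets of 31042 after controls were left out, and 9 gene symbols of 14217. *Ppargc1a* has 3 probe sets, *Cpt1a* and *Pdk4* have 2 each, and every other gene has 1. The group was chosen by the measured change from 0 to 6 ZT in these same arrays, where *Cpt1a* was higher and *G0s2* lower at 6 ZT. Differences from 0 ZT are therefore given as a description, without a test, and the tests compare light with darkness at the same clock hour. The mean difference at 3 ZT uses no array of that choice, while the one at 6 ZT shares the 6 ZT arrays with it. The SE, interval and p-value at both hours come from a joint fit of all arrays, those of the choice included. The test at 3 ZT is therefore not wholly separate from the choice.

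The retinas came from adult male Long Evans rats, all kept in darkness overnight, and the RNA was hybridised to 15 Affymetrix arrays, 3 replicas for each of 5 conditions. ZT counts hours from the start of the light phase. The conditions were darkness until 7 am (0 ZT dark, the control), until 10 am (3 ZT dark) or until 1 pm (6 ZT dark), and light of 1000 lux for 3 hours until 10 am (3 ZT light) or for 6 hours until 1 pm (6 ZT light). For the last condition the titles and the methods give 6 hours of light while other labels give 3, and the titles were followed. The sources used here do not say whether the replicas are separate animals or pools, so each p-value refers to the variation among these arrays alone, part or all of which may be technical. Values are log2 units on a scale particular to each probe set, so a higher level of 1 probe set was not read as more RNA. Levels of different probe sets were used to rank them by brightness, to mark dim ones and to summarise marker lists. Statements that groups overlap or lie apart, and SDs of levels, set arrays of different replica numbers side by side. Array medians differed by replica number, so an overlap can hide a difference that is shared within replica numbers.

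Fatty acids enter mitochondria as carnitine esters. CPT1A, on the outer membrane, makes these esters and is the controlled step of entry, CPT2 turns them back into acyl-CoA inside, and ACADM starts the breakdown of medium-length chains. PPARα (*Ppara*) is a nuclear receptor that fatty acids activate, PGC-1α (*Ppargc1a*) is a coactivator of this and other receptors, and *Pdk4*, *Angptl4*, *G0s2* and *Cpt1a* are known PPAR targets in liver, muscle or fat. In the eye, photoreceptors and the retinal pigment epithelium can burn fatty acids beside glucose, and the epithelium receives lipid with the outer segments it engulfs.

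The sequence before the transcription start is shown for *Cpt1a*, *G0s2* and *Ppargc1a*, the genes that the results turn on. Each is the 250 bases upstream of the RefSeq start in build GRCr8, read 5′ to 3′ on the strand of the gene, at chr1:209995910-209996159 (plus strand), chr13:107335949-107336198 (minus strand) and chr14:63634058-63634307 (plus strand). Capitals mark a GC box, GGGCGG on either strand, which only *G0s2* of these 3 holds.
Cpt1a: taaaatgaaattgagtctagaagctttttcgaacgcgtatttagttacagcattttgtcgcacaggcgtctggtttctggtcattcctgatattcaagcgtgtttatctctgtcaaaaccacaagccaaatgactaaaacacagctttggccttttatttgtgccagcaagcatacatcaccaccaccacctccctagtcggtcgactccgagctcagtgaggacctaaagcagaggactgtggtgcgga
G0s2: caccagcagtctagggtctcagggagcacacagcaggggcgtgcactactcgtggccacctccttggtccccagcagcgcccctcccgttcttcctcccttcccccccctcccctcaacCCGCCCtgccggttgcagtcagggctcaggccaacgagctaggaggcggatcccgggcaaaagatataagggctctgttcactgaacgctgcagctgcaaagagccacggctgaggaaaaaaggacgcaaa
Ppargc1a: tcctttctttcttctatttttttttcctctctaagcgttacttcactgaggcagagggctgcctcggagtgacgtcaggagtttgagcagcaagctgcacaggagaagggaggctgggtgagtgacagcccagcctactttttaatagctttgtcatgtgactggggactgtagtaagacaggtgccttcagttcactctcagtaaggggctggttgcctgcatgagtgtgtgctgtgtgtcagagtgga
Motifs were searched on both strands in windows that run from 250 bases before to 50 bases after the start, over 33469 rat promoters. AGGTCANAGGTCA, 2 nuclear receptor hexamers with 1 base between them, is in 0.0538% of all windows and in none of the 9 genes. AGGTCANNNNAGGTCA, with 4 bases between, is in 0.00598% and also in none, as is CACGTG, the E-box of clock factors, at 6.42%. The hexamer AGGTCA alone, which both repeats contain, is in 16.2% of all windows and, among the 9, in *G0s2*, past the start. GGGCGG is in 33.1% of all windows and in 6 of the 9, *Cpt2*, *G0s2*, *Pdk4*, *Angptl4*, *Acadm* and *Ppara*.

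No probe set of the 9 genes passed the test of light against darkness. At 3 ZT 0 of 13 had an adjusted p under 0.05 in limma, where 0.00322% of all probe sets did, and at 6 ZT 0 of 13, where 0% did. Without adjustment, 2 were higher in light at 3 ZT (1.96% of all probe sets were) and 1 was lower (2.64%). At 6 ZT 5 were higher (5.56%) and 0 lower (2.97%). *Cpt1a*, both better measured probe sets of *Ppargc1a* and *Angptl4* are among those 5, and they are described first with the values of every array. The difference of the light effects between the hours gave 0 of 13, also without adjustment (4.14% of all probe sets were higher and 1.81% lower). In bulk tissue such as this, fewer cells of a type and less RNA in each cell cannot be told apart.

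*Cpt1a*, the gate of mitochondrial entry, was higher in light than in darkness in every replica at both hours by its brighter probe set. That probe set read 11.66, 11.68 and 11.59 in replicas 1, 2 and 3 of 0 ZT dark. In darkness it then read 11.40, 11.70 and 12.10 at 3 ZT, and 11.76, 11.96 and 12.17 at 6 ZT. The SD of the dark arrays was 0.048 at 0 ZT, 0.348 at 3 ZT and 0.207 at 6 ZT (n = 3 each), with replica 3 on top at both later hours. In light it read 12.08, 12.18 and 12.26 at 3 ZT, and 12.26, 12.50 and 12.47 at 6 ZT. Across replica numbers, light and dark values overlapped at 3 ZT, where replica 3 of darkness stood above replica 1 of light. They did not overlap at 6 ZT.

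By mean level *Cpt1a* was ordered 0 ZT dark (11.64), 3 ZT dark (11.73), 6 ZT dark (11.96), 3 ZT light (12.17) and 6 ZT light (12.41). The neighbours in this order overlap except for the last pair, 3 ZT light and 6 ZT light, whose nearest arrays both read 12.26 after rounding. Within replica numbers, light exceeded darkness by 0.68, 0.48 and 0.16 at 3 ZT, a mean of 0.44 (SE 0.117, 95% interval 0.18 to 0.70, limma adjusted p = 0.895). At 6 ZT the differences were 0.50, 0.54 and 0.30, a mean of 0.45 (SE 0.117, 0.19 to 0.71, limma adjusted p = 0.508). The means correspond to 1.36-fold at each hour, and their difference was 0.01 (−0.36 to 0.38). Leaving out each array in turn kept the difference between 0.33 and 0.58 at 3 ZT and between 0.40 and 0.49 at 6 ZT.

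The second *Cpt1a* probe set was noisier. It read 7.89, 8.83 and 9.32 at 0 ZT, 8.51, 8.85 and 9.28 in 3 ZT dark and 9.15, 8.23 and 10.23 in 3 ZT light. At 6 ZT it read 8.99, 9.34 and 10.25 in darkness and 9.48, 9.36 and 10.70 in light. Replica 3 was the highest in every condition, and light stood above darkness in 5 of 6 pairs, the exception being replica 2 at 3 ZT (−0.61). Light minus darkness was 0.32 at both hours, with 95% intervals from −0.32 to 0.96. The 3 ZT value was 0.09 without replica 1 of 3 ZT light and 0.74 without replica 2 of it.

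**Figure D1:**
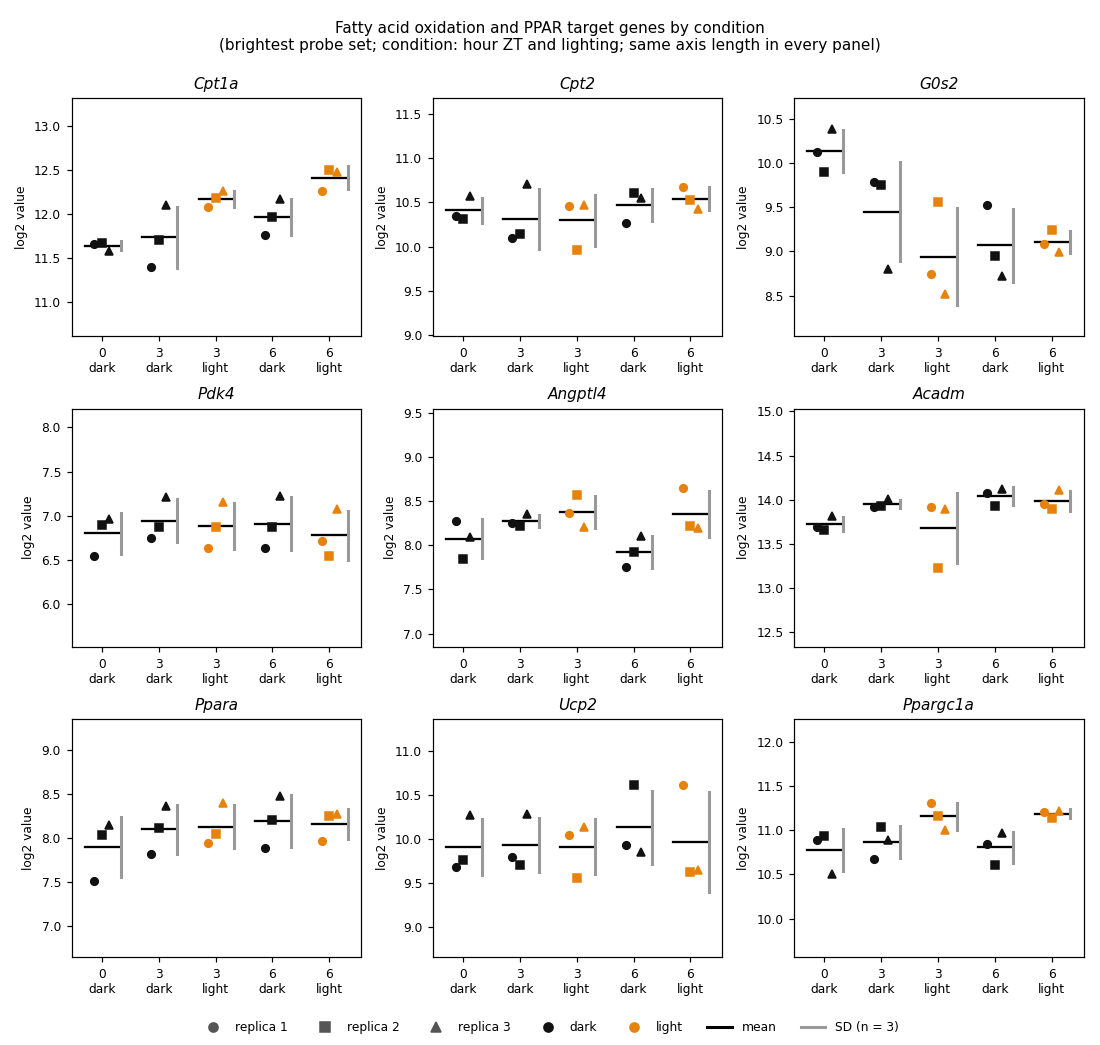
Log2 level of each of the 9 genes (brightest probe set, RMA values) in the 5 conditions, with a symbol for each of the 3 replicas, black in darkness and orange in light, a horizontal bar at the mean and a grey bar for the SD (n = 3). *Cpt1a* stands highest in the light conditions, while *G0s2* stands highest at 0 ZT and lower in every later condition.

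*Ppargc1a*, the coactivator, was higher in light than in darkness in all 6 pairs by its brightest probe set. That probe set read 10.89, 10.93 and 10.51 at 0 ZT, 10.67, 11.03 and 10.89 in 3 ZT dark and 11.31, 11.16 and 11.01 in 3 ZT light. At 6 ZT it read 10.84, 10.61 and 10.97 in darkness and 11.21, 11.14 and 11.22 in light, groups that do not overlap. Both light conditions also lay wholly above 0 ZT, and the dark ones did not. Light minus darkness was 0.29 at 3 ZT (SE 0.142, −0.02 to 0.61, limma adjusted p = 0.895) and 0.38 at 6 ZT (0.07 to 0.70, limma adjusted p = 0.546).

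The other *Ppargc1a* probe sets differed in size from the brightest one. The second read 10.46, 10.59 and 10.55 at 0 ZT, 10.06, 10.77 and 10.79 in 3 ZT dark and 10.81, 10.45 and 11.08 in 3 ZT light, then 10.47, 10.35 and 11.07 in 6 ZT dark and 10.77, 11.00 and 11.34 in 6 ZT light. Its light minus dark difference was 0.24 at 3 ZT (−0.15 to 0.63) and 0.40 at 6 ZT (0.01 to 0.80). Replica 2 at 3 ZT is the pair in which it was lower in light. The third probe set is among the dimmest of the array, with a mean below 6.99. It read 5.74, 5.35 and 7.28 in 3 ZT dark and 7.36, 6.43 and 8.52 in 3 ZT light, higher in light by 1.62, 1.07 and 1.25. Its mean difference, 1.31 (SE 0.362, 0.51 to 2.11, limma adjusted p = 0.895), was the largest of the 13. At 6 ZT its difference was 0.37 (−0.43 to 1.17), and the change between the hours, −0.94 (−2.07 to 0.20, limma adjusted p = 0.776), did not pass.

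*Angptl4*, a secreted inhibitor of lipoprotein lipase, was close to darkness in light at 3 ZT and higher in light than in darkness at 6 ZT. Its mean level in light was 8.38 at 3 ZT and 8.35 at 6 ZT, while that in darkness was 8.27 and 7.92. It read 8.26, 8.22 and 8.35 in 3 ZT dark, and 8.36, 8.57 and 8.20 in 3 ZT light. At 6 ZT it read 7.75, 7.92 and 8.11 in darkness and 8.65, 8.21 and 8.20 in light, which do not overlap. The 6 ZT difference was 0.43 (SE 0.155, 0.09 to 0.77, limma adjusted p = 0.537) and came mostly from replica 1, where it was 0.90 against 0.29 and 0.09 in the others. Without replica 1 of either condition it was 0.28. At 0 ZT *Angptl4* read 8.28, 7.84 and 8.10. The means differed from this control by 0.20 in 3 ZT dark, 0.30 in 3 ZT light, −0.15 in 6 ZT dark and 0.28 in 6 ZT light. The change of the light effect between the hours, 0.33, did not pass (limma adjusted p = 0.777).

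*G0s2*, whose product inhibits the triglyceride lipase ATGL, stood lower in each of the 12 later arrays than in all 3 arrays of 0 ZT. It read 10.13, 9.90 and 10.38 at 0 ZT, 9.79, 9.76 and 8.80 in 3 ZT dark and 8.75, 9.56 and 8.52 in 3 ZT light. At 6 ZT it read 9.53, 8.95 and 8.73 in darkness and 9.08, 9.24 and 8.99 in light. By mean level the order was 3 ZT light (8.94), 6 ZT dark (9.07), 6 ZT light (9.11), 3 ZT dark (9.45) and 0 ZT dark (10.14). The 4 later conditions overlap each other, and only 0 ZT lies apart.

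Light and darkness differed for *G0s2* by −1.04, −0.20 and −0.28 in the 3 replicas at 3 ZT, a mean of −0.51 (SE 0.284, −1.14 to 0.12, limma adjusted p = 0.895). At 6 ZT the replicas gave −0.44, 0.29 and 0.27, a mean of 0.04 (−0.59 to 0.67, limma adjusted p = 0.977). The direction at 3 ZT was shared by the 3 replicas, but its size ran from −0.81 without replica 2 of 3 ZT light to −0.32 without replica 1 of 3 ZT light. The difference between the hours was 0.55 and did not pass (limma adjusted p = 0.781). At the same 6 ZT arrays where *Cpt1a* in light lay wholly above darkness, *G0s2* in light lay within the dark range.

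**Figure D2:**
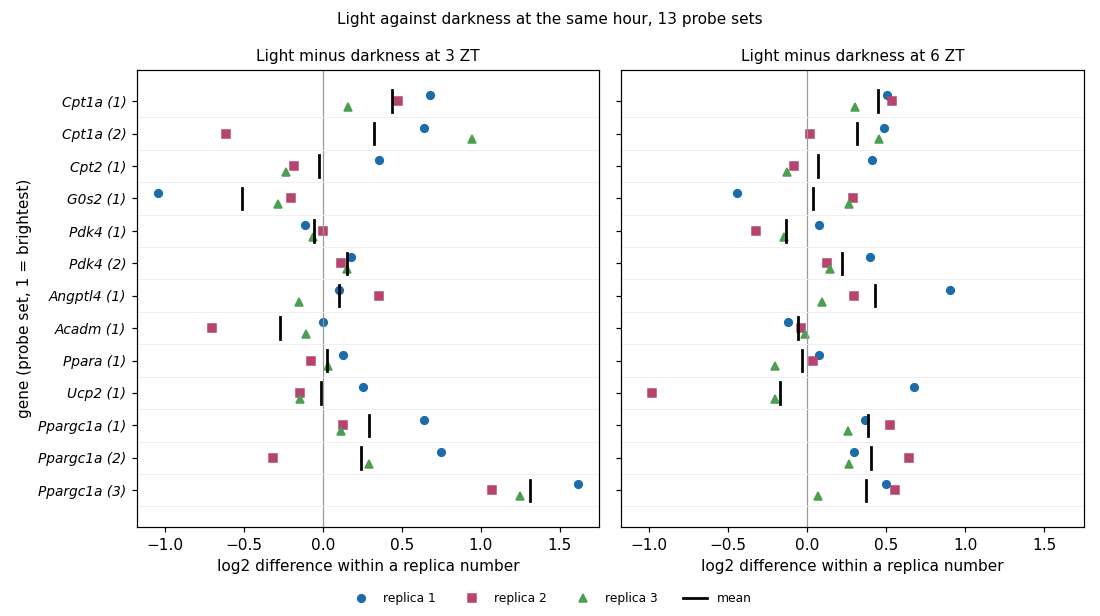
Light minus dark difference in log2 units at 3 ZT and at 6 ZT for each of the 13 probe sets, with a symbol for each replica number and a black bar at the mean; probe sets of a gene are numbered from the brightest. The brighter *Cpt1a* probe set lies right of 0 in all 6 pairs, while *Cpt2*, *Ppara* and *Ucp2* have points on both sides at each hour.

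*Acadm*, which opens the oxidation of medium-length acyl-CoA, was the only one of the 9 genes lower in 3 ZT light at an unadjusted p under 0.05. It read 13.70, 13.66 and 13.81 at 0 ZT, 13.92, 13.93 and 14.00 in 3 ZT dark and 13.92, 13.22 and 13.90 in 3 ZT light. The mean difference of −0.27 (SE 0.122, −0.54 to −7e-04, limma adjusted p = 0.895) rests on replica 2 of 3 ZT light, the array with the largest difference between 3′ and 5′ *Actb* probe sets. Without that array and the next largest in this respect, replica 1 of 0 ZT dark, it was −0.08. At 6 ZT *Acadm* read 14.07, 13.93 and 14.12 in darkness and 13.96, 13.89 and 14.11 in light, a difference of −0.06 (−0.33 to 0.21). In all 3 conditions other than 3 ZT light, the later arrays lay above all those of 0 ZT.

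*Cpt2*, *Ppara* and *Ucp2*, an uncoupling protein of the inner membrane, showed no shared direction with light. *Cpt2* differed by −0.02 at 3 ZT (−0.39 to 0.34) and 0.07 at 6 ZT (−0.30 to 0.43), with all its arrays between 9.96 and 10.71. *Ppara* differed by 0.03 and −0.03 (limma adjusted p = 0.972 and 0.935). Its level followed the replica number, with replica 1 between 7.51 and 7.97, replica 2 between 8.04 and 8.24, and replica 3 between 8.15 and 8.48. *Ucp2* had the widest 6 ZT spread of these 3: it read 9.94, 10.61 and 9.86 in darkness and 10.61, 9.63 and 9.65 in light, so that the replicas gave 0.68, −0.98 and −0.21 around a mean of −0.17 (−0.85 to 0.51).

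*Pdk4* encodes the kinase that shuts pyruvate dehydrogenase when fatty acids are burned, and both its probe sets have means below 6.99, among the dimmest of the array. The first ranged from 6.54 to 7.23 over the 15 arrays and differed by −0.06 at 3 ZT and −0.13 at 6 ZT. The second ranged from 5.94 to 6.84 and was higher in light in all 6 pairs, by 0.15 at 3 ZT and 0.22 at 6 ZT (0.01 to 0.43, limma adjusted p = 0.567). The probe sets of this gene thus differ in sign. Some arrays that share a replica number hold equal values for *Pdk4* or for *Acadm*.

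Counted over all 6 light and dark pairs, 4 of the 13 probe sets were higher in light every time, against 1.64% of all probe sets, and 0 were lower every time (1.18%). They are the brighter *Cpt1a*, the second *Pdk4*, and the brightest and the dimmest of *Ppargc1a*. *Ppargc1a* is thus counted by more than 1 probe set, and its dimmest one and that of *Pdk4* are among the dimmest of the array. Counts that include 6 ZT use arrays by which the genes were chosen, *Cpt1a* among them, and are a description only. Within the hours, 4 were higher in all 3 replicas at 3 ZT (7.71%) and 7 at 6 ZT (17.2%), while 1 was lower at each hour, *G0s2* at 3 ZT (9.43%) and *Acadm* at 6 ZT (13.5%). Light arrays lay wholly above dark ones for 0 of 13 at 3 ZT (0.390%) and for 3 of 13 at 6 ZT (2.33%), *Cpt1a*, *Angptl4* and *Ppargc1a*. Light lay wholly below for 0 at either hour (0.954% and 1.19%). The counts of arrays wholly above or below ignore the replica number. The median light minus dark difference over the 13 was 0.10 at 3 ZT and 0.22 at 6 ZT, beside 3e-04 and −0.01 over all probe sets. With 1 probe set for each gene, the medians were −0.01 and 0.04.

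Against 0 ZT, where the choice of the genes was made, the 4 later conditions share the 3 control arrays. *Cpt1a* differed from 0 ZT by 0.09 in 3 ZT dark, 0.53 in 3 ZT light, 0.32 in 6 ZT dark and 0.77 in 6 ZT light. Its replicas gave 0.60, 0.82 and 0.89 in 6 ZT light, and 0.10, 0.29 and 0.59 in 6 ZT dark. *G0s2* differed by −0.69, −1.20, −1.07 and −1.03 in the same order of conditions, with −0.14 the smallest single difference and −1.87 the largest. *Ppara* was higher than at 0 ZT in all 3 replicas of each of the 4 conditions, by 0.20, 0.23, 0.29 and 0.26. Its single differences ran from 0.0017, in replica 2 of 3 ZT light, to 0.46, in replica 1 of 6 ZT light. In each condition the largest was in replica 1, whose 0 ZT array has the second largest *Actb* difference. Without the 2 arrays of largest *Actb* difference *Ppara* differed by 0.23 in 6 ZT dark and 0.20 in 6 ZT light. *Ppargc1a* differed by 0.38 and 0.41 in 3 ZT and 6 ZT light and by 0.09 and 0.03 in darkness at those hours.

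In 6 ZT light, 5 of 13 probe sets lay wholly above 0 ZT (1.74% of all did), both of *Cpt1a*, the first 2 of *Ppargc1a*, and *Acadm*, and 1 lay wholly below (1.81%), *G0s2*. In 6 ZT dark these were 2 (0.673%), *Cpt1a* and *Acadm*, and again *G0s2* below (3.69%). In 3 ZT light *Cpt1a* and *Ppargc1a* lay above (1.29%), and in 3 ZT dark *Acadm* (0.309%), with *G0s2* below in both (1.21% and 1.07%). By replica number, 2 of 13 were higher than 0 ZT in all 3 replicas of 3 ZT dark (7.78%), 5 in 3 ZT light (11.8%), 4 in 6 ZT dark (15.5%) and 7 in 6 ZT light (12.3%). Lower in all 3 replicas were 2 (8.52%), 1 (11.0%), 2 (15.1%) and 1 (9.38%) in the same order. These counts repeat the contrast behind the choice and are a description only.

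**Figure D3:**
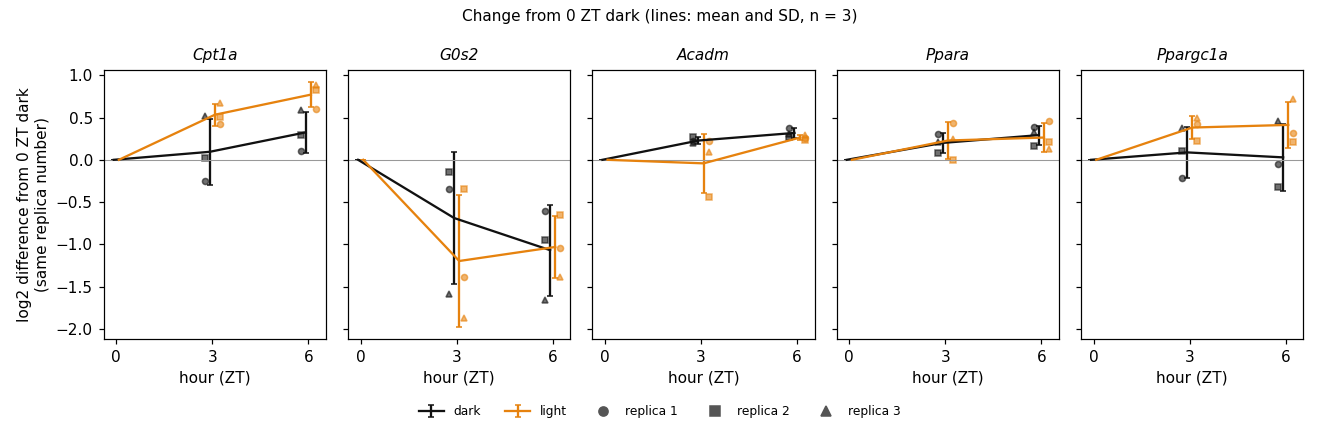
Log2 difference from 0 ZT dark for *Cpt1a*, *G0s2*, *Acadm*, *Ppara* and *Ppargc1a* (brightest probe set) against hour in ZT, with a symbol for each replica number and lines through the means of darkness (black) and light (orange), whose bars are SDs (n = 3). *Cpt1a* reaches 0.77 in 6 ZT light against 0.32 in 6 ZT dark, while *G0s2* lies below 0 in all 12 points.

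The rest of the pathway was read from 10 lists of 103 other genes, of which 95 had a probe set. Counting the brightest probe set of each, 35 were higher and 60 lower in light at 3 ZT (median −0.05) and 52 were higher and 43 lower at 6 ZT (median 0.02). None passed at either hour (lowest limma adjusted p = 0.895 and 0.518). Without adjustment 3 of the 95 were higher and 3 lower at 3 ZT, beside 1.96% and 2.64% of all probe sets. At 6 ZT 4 of the 95 were higher and 1 lower, beside 5.56% and 2.97% of all probe sets.

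Mitochondrial fatty acid oxidation, the list closest to *Cpt1a*, leaned in opposite directions at the 2 hours. At 3 ZT 2 of its 18 genes were higher and 16 lower in light, with a median of −0.16, and 0 passed. The median was 0 in replica 1, −0.33 in replica 2, where all 18 were lower, and −0.05 in replica 3. *Decr1*, a reductase for unsaturated chains, differed by −0.35, *Slc25a20*, the carnitine carrier between CPT1 and CPT2, by −0.29, and *Etfdh*, which passes electrons on to ubiquinone, by −0.24 (limma adjusted p = 0.895 for each). Without replica 2 of 3 ZT light, the array with the largest *Actb* difference, and replica 1 of 0 ZT dark, these were −0.12, −0.14 and −0.13. At 6 ZT 15 were higher and 3 lower, with a median of 0.12 and medians of 0.20, 0.10 and 0.08 in replicas 1, 2 and 3, and again 0 passed.

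In the list of malonyl-CoA control, *Acaca*, which makes the malonyl-CoA that inhibits CPT1, was higher in light in 6 of 6 pairs, by 0.29 at 3 ZT and 0.33 at 6 ZT (limma adjusted p = 0.895 and 0.518). *Fasn*, the fatty acid synthase, differed by 0.41 at 3 ZT, with 0.06, 0.93 and 0.23 in the replicas, and by 0.12 without replica 2 of 3 ZT light. The 9 genes of that list had medians of 0.07 and −0.04 at 3 and 6 ZT. Triglyceride storage and lipolysis, the setting in which G0S2 acts, had 2 genes higher and 6 lower at each hour, with medians of −0.16 and −0.10. Its lipase *Pnpla2* (ATGL) differed by 0.11 at 3 ZT and −0.26 at 6 ZT, the latter −0.0447 without replica 2 of 6 ZT dark. The lipase *Lipe* gave −0.001 and −0.25, the latter −0.11 without replica 2 of 6 ZT light. The monoglyceride lipase *Mgll* gave −0.26 at 3 ZT, −0.16 without replica 2 of 3 ZT light, and −0.23 at 6 ZT.

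Among receptors and coregulators, 5 of 12 were higher in light at 3 ZT and 6 of 12 at 6 ZT (medians −0.04 and −0.00). *Pprc1*, a relative of PGC-1α, differed by 0.45 at 3 ZT, almost wholly through replica 2 (1.17, beside 0.21 and −0.04), and by 0.16 without that array of 3 ZT light. *Pparg* differed by −0.12 at 3 ZT and −0.02 at 6 ZT. Other PPAR targets had 8 of 15 higher at each hour (medians 0.02 and 0.05), with *Acot2*, a mitochondrial thioesterase, at 0.06 and 0.23 and *Ehhadh*, a peroxisomal enzyme, at −0.07 and 0.24 at 3 and 6 ZT. Peroxisomal oxidation had 5 of 9 higher at 3 ZT and 6 of 9 at 6 ZT (medians 0.03 and 0.14), and *Abcd2*, a peroxisomal acyl-CoA carrier, differed by 0.12 at 3 ZT and 0.43 at 6 ZT (limma adjusted p = 0.524 at 6 ZT). The latter was 0.28 without replica 2 of 6 ZT dark. For uptake, binding and activation the medians were 0.05 and −0.03, and *Fabp5*, a fatty acid binding protein, was lower in 3 of 3 replicas at each hour, with means of −0.09 and −0.32. The latter was −0.17 without replica 3 of 6 ZT light.

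The pyruvate dehydrogenase switch, to which *Pdk4* belongs, had 3 of 9 genes higher in light at 3 ZT and 4 of 9 at 6 ZT (medians −0.07 and −0.03). The kinase *Pdk1* differed by −0.26 at 3 ZT and −0.16 at 6 ZT, and *Pdk2* by −0.07 and −0.28. Without replica 2 of 3 ZT light the 3 ZT value of *Pdk1* was −0.09, and without replica 2 of 6 ZT dark the 6 ZT value of *Pdk2* was −0.002. The pyruvate carrier subunit *Mpc2* differed by −0.23 at 3 ZT, −0.0277 without replica 2 of 3 ZT light, and by −0.06 at 6 ZT. Uncoupling proteins and carriers, the relatives of *Ucp2*, had 0 of 6 higher at 3 ZT and 4 of 6 at 6 ZT (medians −0.02 and 0.03), and *Slc25a4*, the ATP and ADP carrier, differed by −0.37 at 3 ZT and 0.02 at 6 ZT. Its replicas at 3 ZT gave −0.19, −1.01 and 0.11, and the mean was −0.07 without replica 2 of 3 ZT light. *Ucp3* differed by −0.01 at 3 ZT and −0.18 at 6 ZT, the latter −0.07 without replica 2 of 6 ZT light. The ketone list had only *Bdh1* and *Oxct1* measured, at −0.07 and −0.05 at 3 ZT and at 0.02 and 0.04 at 6 ZT.

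**Figure D4:**
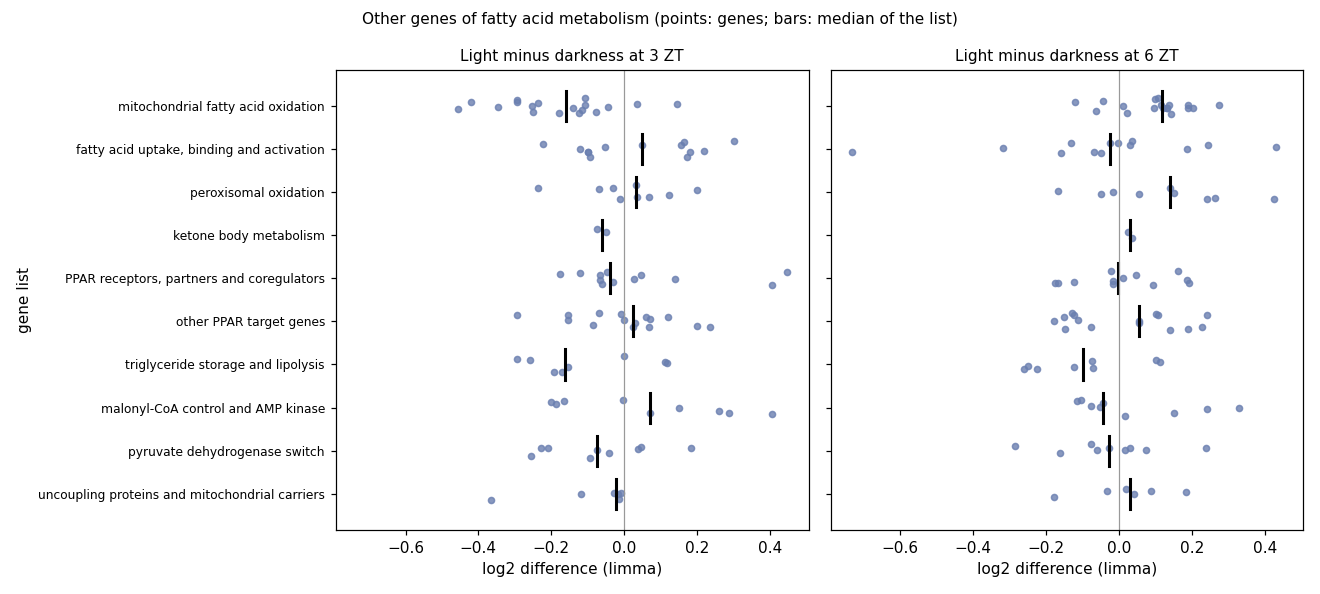
Light minus dark difference in log2 units at 3 ZT and 6 ZT for the measured genes of the 10 pathway lists, as estimated in limma, with 1 point for each gene (brightest probe set) and a bar at the median of the list. Mitochondrial fatty acid oxidation has a median of −0.16 at 3 ZT and 0.12 at 6 ZT, and all list medians lie within 0.2 log2 units of 0.

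Markers of the retina and of nearby tissue were read beside these genes. Rod markers were bright in all 15 arrays (6 of 8 measured, mean 14.02 to 14.68), and those of fat cells and muscle lay below 6.99 in mean, the limit of the dimmest probe sets. Pigment epithelium markers (9 of 10 measured, *Best1* had no probe set) differed between light and darkness at 6 ZT. There 8 were higher in light and 1 lower (median 0.58). Their mean log2 level was 11.11 at 0 ZT, 11.09 in 3 ZT dark and 11.24 in 3 ZT light. At 6 ZT it was 10.68 in darkness, the lowest of the conditions, and 11.26 in light. Their summed linear level was 40338 to 52334 at 0 ZT, 41239 to 52670 in 3 ZT dark, 38601 to 49998 in 3 ZT light, 28129 to 42848 in 6 ZT dark and 41473 to 64158 in 6 ZT light. Their mean differed by 1.08, 0.10 and 0.57 in replicas 1, 2 and 3 at 6 ZT and by 0.36, −0.13 and 0.20 at 3 ZT. In the same replicas *Angptl4* differed by 0.90, 0.29 and 0.09 at 6 ZT and by 0.10, 0.35 and −0.15 at 3 ZT. The part of the epithelium in the differences of *Cpt1a*, *Ppargc1a* and *Angptl4* was not tested.

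Lens markers (10 of 10 measured) were lower in all 10 at 6 ZT light, with a median of −1.53, and higher in 9 at 3 ZT, with a median of 0.50. Their summed level was 33105 to 93081 at 0 ZT, 31783 to 78920 in 3 ZT dark, 24696 to 99945 in 3 ZT light, 86414 to 120300 in 6 ZT dark and 12837 to 88802 in 6 ZT light. Blood markers (3 of 4 measured) had 2 higher and 1 lower in light at 6 ZT. Their summed level was 22464 in replica 2 of 6 ZT light, beside 2539 and 6152 in replicas 1 and 3, and 3214 to 5214 in 6 ZT dark. Müller glia markers (6 of 6 measured) had 1 higher in light at 3 ZT and 5 at 6 ZT (medians −0.17 and 0.06). Vessel markers (4 of 5 measured) had 1 higher at each hour (medians −0.07 and −0.12). Microglia markers (4 of 4 measured) had 2 higher at 3 ZT and 0 at 6 ZT (medians −0.003 and −0.08). The part of lens tissue, of blood or of these cells in the differences between light and darkness was not tested. Array medians followed the replica number (8.28 to 8.32, 8.58 to 8.68 and 8.74 to 8.80 for replicas 1, 2 and 3), as did *Ppara*. Replica 2 of 3 ZT light and replica 1 of 0 ZT dark had 3′ minus 5′ *Actb* differences of 2.40 and 2.10, against 0.708 to 1.37 in the other 13. Without both arrays *Cpt1a* differed by 0.46 at 3 ZT and 0.45 at 6 ZT, *G0s2* by −0.82 at 3 ZT and the dimmest *Ppargc1a* probe set by 1.66 at 3 ZT.

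Genes with the array pattern closest to that of *Cpt1a* and *G0s2* were found by the root mean square distance in log2 units over the 15 arrays, after subtracting the mean of each replica number. For *Cpt1a*, whose own root mean square was 0.303, the nearest were *Pdzph1* (0.109), *Baiap2l1* (0.120) and *Svil* (0.127). For *G0s2*, at 0.519, they were *LOC102554959* (0.278), *Mcub* (0.291) and *Sln* (0.307), so the match was looser in proportion. None of the 9 genes is among the nearest of either.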

How the data were processed

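Rat retina RNA was measured on 15 Affymetrix RAT230_2 arrays. The authors deposited log2 expression values after robust multi-array averaging (RMA), which corrects background, normalizes and sums probes. The software is not given in the sources used here. Genes were named from the platform annotation, updated through RefSeq (20764 of 20832 annotation entries with 1 symbol matched by Entrez identifier). After leaving out 57 controls of 31099 probe sets, 31042 were fitted in limma 3.58.1 (R 4.3.3) with condition and replica number as terms, and p-values were adjusted by Benjamini-Hochberg over all of them (threshold 0.05). Replica numbers were used as a block because the methods of the study take ratios within a replica. Same-numbered arrays deviated together in each of 18 checks (r of 0.289 to 0.797, against at most 0.233 for other numbers). Deviations were taken from the mean of the 3 replicas, so a positive r for the same number lowers the others. The contrast between them is therefore no separate support for the block. Array medians followed the replica number, so values of different replica numbers may not share a scale. Whether all arrays were normalized together is not given in the sources used here. The number of arrays, 3 per condition, limits the precision.

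The genes and lists were chosen with earlier results of these data known. All probe sets of the 9 genes are reported, with the brightest (highest mean over the 15 arrays) standing for a gene. Of each pathway list, the up to 3 genes with the smallest unadjusted p were eligible to be named, and for *Cpt1a* and *G0s2* the 3 nearest genes. Alternatives were no block, quantile and cyclic loess normalization, a filter on dim probe sets (mean below 6.99), array quality weights, only the conditions compared, and leaving out arrays. The fit was tested on simulated data. Figures were drawn with matplotlib 3.10.9.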

Additional observations from a re-analysis of the deposited data

How the results depend on the processing

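The number of called probe sets of the 9 genes and of the pathway lists was 0 under every alternative run but array quality weights. With those weights, 1 of the 13 probe sets of the 9 genes and 8 of the 137 of the pathway lists were called at 6 ZT. The same weights called 2311 of all 31042 probe sets at 6 ZT, against 0 without them, so calls were common over the whole array. The called probe set of the 9 genes was the brighter *Cpt1a* (0.37, limma adjusted p = 0.0324). Those of the lists included *Fabp5* (−0.48, limma adjusted p = 0.0184) and *Abcd2* (0.36, limma adjusted p = 0.0405). The weights gave replica 3 of 6 ZT light 7.45, beside 0.488 and 0.464 for the other replicas. Without the replicate block, 0 probe sets of the 9 genes were called in each comparison, with a lowest adjusted p of 1. In this balanced design the pairing cannot alter a mean difference. Small differences changed sign. With array weights *Cpt2* was 0.0716 and *Ucp2* 0.0241 at 3 ZT and *Cpt2* −0.0554 at 6 ZT. Without the 2 arrays of largest *Actb* difference *Cpt2* was 0.13, *Angptl4* −0.0383 and *Ucp2* 0.12 at 3 ZT. Leaving out each array in turn gave, at 3 ZT, −0.14 to 0.14 for *Cpt2*, −0.0476 to 0.21 for *Angptl4*, −0.0241 to 0.10 for *Ppara*, −0.13 to 0.16 for *Ucp2* and −0.15 to 0.0916 for *Oxct1*. At 6 ZT it gave −0.0423 to 0.23 for *Cpt2*, −0.12 to 0.25 for *G0s2*, −0.0773 to 0.0502 for *Ppara*, −0.55 to 0.20 for *Ucp2* and −0.0161 to 0.68 for the dimmest *Ppargc1a*, and called 0 to 0 in all comparisons. The cause was not tested. Dim probe sets, both of *Pdk4* among them, carry the least signal over background.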
